A study of Mus musculus with 9 samples.

Results

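Untreated RAW264.7 cells were compared with RAW264.7 cells given lipopolysaccharide (LPS) together with G-CDs, to describe which parts of the LPS state were still present with G-CDs, which were near the untreated level and which were seen only with G-CDs. A gene entered the comparison when its FPKM (fragments per kilobase of gene, scaled to library size) was at least 1 in 3 or more of the 6 libraries of these groups. By this rule 11126 of 54532 genes were kept, of which 9603 were protein-coding and 9543 reached the minimum in all 6 libraries. Another 175 genes passed through the control libraries alone and 173 through the LPS + G-CDs libraries alone, so these had to differ to be kept.

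RAW264.7 is a mouse macrophage line raised from the ascites of a virus-induced tumor, and the labels give its genotype as WT. G-CDs are carbon dots, nanoparticles that the study made from licorice (Glycyrrhiza) and describes as scavenging superoxide with an activity like that of superoxide dismutase. Control cells received nothing, LPS cells received 1 μg/ml of LPS for 6 h, and LPS + G-CDs cells received the same LPS dose plus 400 μg/ml of G-CDs for the same time. Each of these 3 groups had 3 libraries of poly(A) RNA. The LPS libraries were used for reference only. The titles of the last group name G-CDs while its treatment field names LPS alone, and no group received G-CDs without LPS, so an effect of G-CDs alone and one that needs LPS cannot be told apart. Nothing in the sources says that the libraries of a group came from separate cultures, so p-values measure only the spread between these libraries.

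LPS is bound by CD14 and by the receptor pair of TLR4 and MD-2, whose adaptors MyD88 and TRIF lead to the transcription factors NF-κB, AP-1 and IRF3. NF-κB raises cytokines and chemokines together with its own inhibitors, while IRF3 raises interferon beta, which acts back on the cell and raises a large set of antiviral genes. The transcription factor Nrf2 is held and marked for degradation by Keap1, and when it is released it raises genes for heme breakdown, glutathione synthesis and peroxide removal through a DNA sequence named the antioxidant response element.

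The libraries held between 14752400 and 17312255 reads on genes. The deposited FPKM values imply a divisor larger than these reads in the control libraries (ratio 1.11 to 1.14) and smaller in the LPS (0.929 to 0.936) and LPS + G-CDs libraries (0.880 to 0.980), which means that they carry a scaling between groups. The median replicate SD of a gene was 0.244 on the log2 scale for control, 0.256 for LPS + G-CDs and 0.084 for LPS. Part of this spread moved with gene length. With genes cut by length into 5 equal bins, among the shortest genes LPS + G-CDs replicate 1 lay at a median of -0.31 from its group mean and replicate 3 at 0.35, and among the longest genes at 0.27 and -0.26. Control replicate 3 lay at 0.20 and -0.22. Of 10 macrophage markers 9 passed the minimum, and their summed FPKM was 2384 to 3445 in control, 1792 to 1875 in LPS and 1441 to 2234 in LPS + G-CDs libraries. No marker of fibroblasts, hepatocytes, T cells, B cells, endothelium, epithelium or neutrophils reached 1 FPKM in 3 of the 6 libraries. Among the neutrophil markers Mpo, Elane and Ly6g were at 0 in all 9 libraries. S100a9 was at 0, 0 and 0.430 FPKM in control and at 0 in every LPS and LPS + G-CDs library. S100a8 stood at 0.154, 0.339 and 0.162 FPKM in control and 0.797, 1.13 and 2.15 with LPS + G-CDs. Whether that difference has a part in any result was not tested.

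In the comparison of LPS + G-CDs with control, 953 genes were higher (8.57% of the genes tested) and 858 were lower (7.71%) at a Benjamini-Hochberg adjusted p under 0.05 in limma, here named called. The rises were larger than the falls. The 10 largest rises ran from 6.79 to 9.88 and the 10 largest falls from -3.59 to -2.32 as log2 fold changes on the log2(FPKM + 1) scale, which understates the change of genes with low values. The median over all genes was 0.02. When every library was scaled to a common sum (TPM), that median moved to -0.34 and the calls to 585 higher and 2024 lower, so single fold changes are to be read against this shift. Without LPS + G-CDs replicate 2 the calls were 535 higher and 318 lower, and without control replicate 2 they were 616 and 411. The fold changes themselves also moved with gene length. Their median fell from 0.165 in the bin of the shortest genes to -0.095 in that of the longest. The calls were 154 higher and 60 lower among the shortest genes and 112 and 164 among the longest. Small fold changes and small list medians given below are to be read against this trend too.

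**Figure D1:**
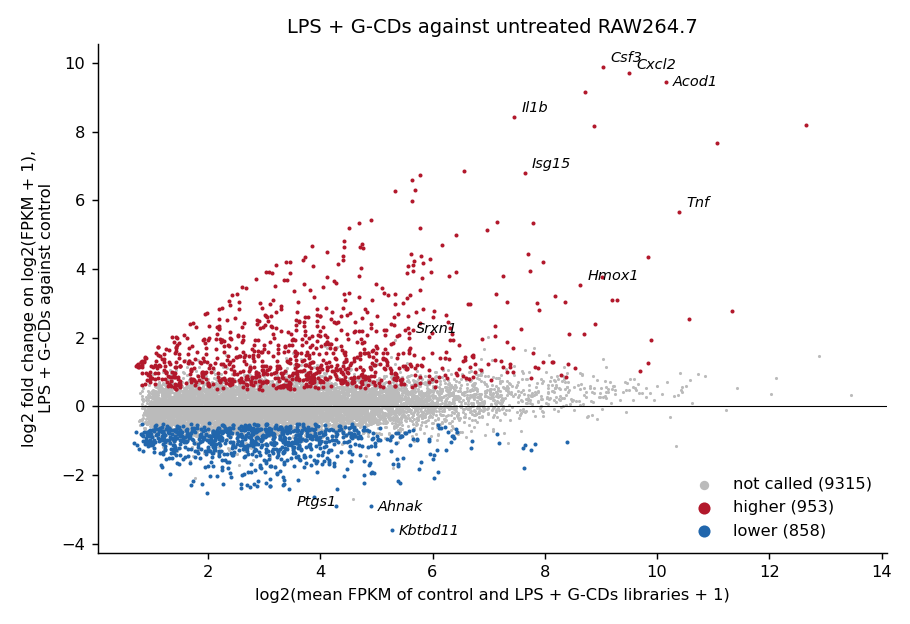
Log2 fold change of LPS + G-CDs against control (vertical axis) against the log2 of the mean FPKM + 1 of the 6 libraries (horizontal axis), 1 point per gene. Red marks the 953 genes called higher, blue the 858 called lower and gray the 9315 not called, and the rises reach 9.88 while the falls reach -3.59.

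The 10 largest rises were mostly chemokines, cytokines and enzymes of inflammation, with the interferon-stimulated gene Isg15 also among them. Cxcl2, which attracts neutrophils, stood at 0.464, 0.966 and 0.788 FPKM in the control libraries and at 1172, 1712 and 1480 with LPS + G-CDs. Every treated library lay far above every control library, and the log2 fold change was 9.70 ± 0.21 (SE). Cxcl2, Csf3, Ccl5 and Il1b among the 10 largest rises, and Ranbp3l among the 10 largest falls, passed the minimum through 1 group alone, so the rule fixed their direction and their values are a description. Acod1, which makes itaconate, rose from 2.26, 2.73 and 1.95 FPKM to 2312, 2267 and 2233, with the tightest treated libraries among these genes (log2 fold change 9.43 ± 0.17, SE, adjusted p = 1.49e-06, limma). Ptgs2, the inducible cyclooxygenase, rose from 1.99, 2.67 and 1.67 to 1302, 953 and 539 FPKM. Its treated libraries spread widely, with replicate 3 the lowest, but none came near control (log2 fold change 8.15 ± 0.33, adjusted p = 1.31e-05). The chemokines Ccl5, Ccl3 and Ccl4 rose by 9.16, 8.19 and 7.66 on the log2 scale, and Il27, a cytokine subunit, by 6.85. Ccl3 and Ccl4 had clear control levels, 46.7 ± 22.4 and 19.4 ± 3.68 FPKM (SD, n = 3), and reached 12788 ± 2375 and 4273 ± 1537 FPKM.

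Several cytokines were almost silent in untreated cells. Il6 had 0 reads in all 3 control libraries and 13.6, 16.8 and 18.9 FPKM with LPS + G-CDs, which is at least 238-fold higher than the floor of 3 reads per control library. Il1b had 1 read in the 3 control libraries together and 297, 339 and 412 FPKM with LPS + G-CDs. For such low counts the ratio of pooled rates is loose, 35592-fold with a 95% counting interval of 6388 to 1405841. Lif, a cytokine of the interleukin-6 family, had 2 control reads and a ratio of 12532 (interval 3469 to 103484), and Csf3, the granulocyte growth factor, had 8 and a ratio of 9922 (interval 5035 to 22982). These intervals cover counting error only.

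Of the 24 listed cytokines 20 were tested and 18 of these rose, with 0 falls. Since 11 of the 20 passed the minimum only through the LPS + G-CDs libraries, being under 1 FPKM in every control library, their direction was fixed by the rule. Of the other 9 cytokines 8 rose, with a median log2 fold change of 2.19 against 0.02 over all genes. The members not called were Ltb and Il15. Tnf, the early macrophage cytokine, already stood at 34.0, 58.9 and 67.1 FPKM in control and was at 2448, 2669 and 2748 with LPS + G-CDs and at 2539, 2449 and 2549 with LPS. The treated groups overlapped each other and neither overlapped control. The log2 fold change of Tnf against control was 5.65 ± 0.29 with LPS + G-CDs and 5.59 with LPS. Among 18 listed chemokine ligands 10 passed the minimum and all 10 rose, but 6 of these, Cxcl2, Ccl5, Ccl22 and Cxcl10 among them, passed only through the LPS + G-CDs libraries. The 4 with control levels all rose (median 5.80). Among those that entered through the treated libraries was Cxcl10, which attracts T cells, at 0.213, 0.130 and 0.499 FPKM in control and 84.5, 99.8 and 118 with LPS + G-CDs.

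Of 28 listed inflammatory enzymes and secreted effectors, 15 of the 19 tested rose and 3 fell. Leaving out 9 members that passed only through the LPS + G-CDs libraries, 6 of 10 rose and 3 fell. Nos2, which makes nitric oxide, was at 1.22, 1.09 and 0.713 FPKM in control, 62.0, 47.8 and 38.7 with LPS + G-CDs and 114, 105 and 96.5 with LPS. The 3 groups did not overlap, with LPS + G-CDs between the others. Against control Nos2 was higher by 4.63 ± 0.21 (adjusted p = 2.49e-05), and against LPS its log2 fold change of -1.10 ± 0.18 was not called (adjusted p = 0.119). The falls were Ptgs1, the constitutive cyclooxygenase (-2.42), Alox5, the leukotriene enzyme (-1.42), and Plau, the urokinase (-0.98). Of the 5 chemoattractant receptors tested, the complement receptors C5ar1 (3.91) and C3ar1 (2.99) and the chemerin receptor Ccrl2 (4.20) rose, and the fractalkine receptor Cx3cr1 fell (-1.68). C3ar1 and Ccrl2 passed only through the LPS + G-CDs libraries.

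All 41 of the 43 listed interferon-stimulated genes that could be tested rose. Of these, 12 passed the minimum only through the LPS + G-CDs libraries, Rsad2 and Isg20 among them, and the other 29 all rose, with a median of 2.91. Under TPM 40 of the 41 were still called, and leaving out single libraries of the comparison left 40 or 41. Isg15, a ubiquitin-like modifier, was at 3.46, 1.32 and 2.75 FPKM in control and 257, 347 and 578 with LPS + G-CDs (log2 fold change 6.79 ± 0.36, adjusted p = 4.47e-05). Oasl1, a sensor-like protein of the oligoadenylate synthetase family, rose by 5.33, Rsad2, the antiviral enzyme viperin, by 5.18, and Isg20, an exonuclease, by 4.64. For Rsad2 the values were 0.221, 0.312 and 0.104 FPKM in control, 29.0, 31.5 and 27.8 with LPS and 52.4, 42.1 and 35.9 with LPS + G-CDs. Every LPS + G-CDs library lay above every LPS library, but the difference of 0.53 ± 0.15 was not called (adjusted p = 0.251). The antigen presentation list had 8 of 14 tested members higher and 0 lower, or 5 of 11 without those that passed only through the LPS + G-CDs libraries. Tap1, a peptide transporter with control levels, rose by 2.05. Cd40, a costimulatory receptor, entered through the treated libraries alone and was at 0.329, 0.535 and 0.429 FPKM in control and 29.0, 39.6 and 52.4 with LPS + G-CDs. Without LPS + G-CDs replicate 2 that count was 4 of 14.

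The promoters of these genes were searched for the binding sequences of the factors named above, in windows from 250 bases before to 50 bases after the gene start (RefSeq, GRCm38.p6, 7882 of the 11124 tested symbols with a window, both strands, overlapping matches allowed). A gene with several starts counted once, with a match in any of its windows, and shares are of genes with a window. The interferon-stimulated response element, GAAANNGAAA, was in 3.99% of all 27025 genes and 3.84% of tested genes. It was in 11.5% of genes called higher, 2.96% of genes called lower and 18 of the 31 interferon-stimulated genes. The NF-κB sequence was in 9.55% of all genes, 12.1% of tested genes, 17.6% of genes called higher and 12.5% of genes called lower. It was in 7 of 14 cytokines and 3 of 5 chemokine ligands. A match is a description of the sequence and not a bound site. The stretches printed here belong to named interferon and chemokine genes and were chosen because those lists had the highest shares of members called and these members held a match. The windows of Oasl1, Isg20 and Ccl3, named members of the same lists, held none. Capitals mark the match, which in Isg15 is a run of 3 overlapping matches beginning 78 bases upstream of the gene start, in Rsad2 begins 120 bases upstream and in Cxcl2 is a pair of overlapping matches beginning 97 bases upstream.
Isg15 (chr4:156200835-156200936, minus strand): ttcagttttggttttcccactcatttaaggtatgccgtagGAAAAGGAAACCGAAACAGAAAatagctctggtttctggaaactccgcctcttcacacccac
Rsad2 (chr12:26456523-26456612, minus strand): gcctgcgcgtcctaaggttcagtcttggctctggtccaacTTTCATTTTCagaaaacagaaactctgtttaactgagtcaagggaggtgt
Cxcl2 (chr5:90903762-90903852, plus strand): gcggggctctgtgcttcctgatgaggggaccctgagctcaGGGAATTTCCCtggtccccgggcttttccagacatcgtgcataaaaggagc

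The signaling chain itself changed in parts. Of 30 listed genes of LPS recognition and signaling 13 rose and 0 fell, with a median of 0.47. Traf1, an adaptor of TNF receptors (3.80), Ikbke, a kinase upstream of IRF3 (2.75), Cd14 (2.55) and Irak2, a kinase of the MyD88 arm (2.41), led them. Cd14 was already abundant, at 427, 387 and 493 FPKM in control and 1945, 2476 and 3412 with LPS + G-CDs. The kinase Ikbkb had a log2 fold change of 0.04 ± 0.17 (95% interval -0.37 to 0.45) and the NF-κB subunit Rela one of 0.44 ± 0.18 (0.02 to 0.87, adjusted p = 0.152), neither called. Tlr4 stood at 3.47, 6.41 and 3.38 FPKM in control and 3.14, 2.81 and 1.86 with LPS + G-CDs (-0.56 ± 0.26, adjusted p = 0.200, not called). Under TPM 11 of the 30 were higher and 2 lower.

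The brakes on this chain were higher as well, 19 of 22 with 0 lower, and 18 of the 21 that did not pass through the LPS + G-CDs libraries alone, with a median of 1.95. Nfkbia, the inhibitor that holds NF-κB in the cytoplasm, was at 66.4, 67.8 and 77.9 FPKM in control and 526, 600 and 627 with LPS + G-CDs (3.03 ± 0.19, adjusted p = 8.60e-05). Dusp5, a phosphatase of ERK (5.20), Socs3, an inhibitor of cytokine receptors (5.12), Nfkbiz, a nuclear IκB protein (4.42), and Zfp36, which destabilizes cytokine mRNA (3.92), rose most. Of the other regulators, 13 of 21 immediate early and AP-1 factors rose and 3 fell. Ier3, Myc and Atf3 rose by 4.34, 4.19 and 4.11. Of 19 survival and death genes 11 rose and 1 fell, and under TPM 7 rose and 2 fell. Bcl2a1a, Bcl2a1d and Bcl2a1b, near-identical copies among which reads may have been split, rose by 4.36, 4.20 and 3.74, and the death receptor Fas by 2.93. Myc, Bcl2a1a and Fas passed the minimum only through the LPS + G-CDs libraries, and without such members the counts were 11 of 19 factors and 9 of 17 survival genes higher. Of 8 inflammasome genes 3 rose. Nlrp3, its sensor, was at 28.8, 20.7 and 15.3 FPKM in control and 220, 178 and 129 with LPS + G-CDs, Casp4 rose by 2.60, and Casp1 by 0.94, a call that was lost under TPM and without several single libraries.

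Among the 10 largest falls was Kbtbd11, a BTB-domain protein, at 82.9, 73.1 and 55.5 FPKM in control and 5.55, 4.41 and 4.62 with LPS + G-CDs (-3.59 ± 0.19, adjusted p = 4.66e-05). The groups did not overlap, and the LPS libraries were at 4.32, 3.71 and 3.62. Ahnak, a very large scaffold protein, fell by 2.90 on the log2 scale from 20.8 to 85.3 FPKM in the control libraries to 3.02 to 9.67 with LPS + G-CDs. Its control libraries spread widely, and its call was lost without control replicate 2 or LPS + G-CDs replicate 2. The others were Slc5a3, a myo-inositol transporter (-2.65), Ranbp3l (-2.54), Ptgs1 (-2.42), the semaphorin receptor Plxnd1 (-2.40), C130050O18Rik (-2.38), the uracil DNA glycosylase Ung (-2.34), the amino acid transporter Slc43a2 (-2.34) and the kinesin Kifc3 (-2.32).

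Many cell cycle genes fell, with 16 of 30 lower, 0 higher and a median of -0.84. E2f2, a factor for entry into DNA synthesis, was at 15.0, 11.8 and 12.3 FPKM in control and 1.73, 2.31 and 2.67 with LPS + G-CDs (-2.12 ± 0.17, adjusted p = 3.29e-04). Ccne2 (-1.55), Cdc6 (-1.55) and E2f1 (-1.34), all of the same entry step, also fell. Among examples picked from the list with a part in mitosis, Ccna2 (-0.90) and Aurkb (-0.78) were called while Plk1 (-0.39), Ccnb1 (0.01) and Cdk1 (0.52) were not. Other such members are not given, and genes of mitosis and of the entry step were not counted apart. Without LPS + G-CDs replicate 2 the count was 9 of 30. Of 26 sterol and fatty acid genes 5 fell and 0 rose, led by the cholesterol exporter Abcg1 (-2.14) and the desaturase Scd2 (-1.81), and this count was 3 with control replicate 2 or 3 or any 1 LPS + G-CDs library left out and 8 under TPM. Among lysosome genes 3 of 26 fell, among them Tfeb, a regulator of lysosome genes (-1.76), and Psap (-1.27), and Atp6v1h rose (1.03). The lysosome falls were 1 without LPS + G-CDs replicate 2, where Psap lost its call, and 7 under TPM, beside 7.71% lower over all genes. The TCA cycle and respiratory chain had 1 of 30 lower, Ppargc1b (-1.03), and 0 higher, a share under that of all genes. The call of Ppargc1b was lost without control replicate 1 or 2 or LPS + G-CDs replicate 2, and under TPM 7 of the 30 were lower. Glycolysis had 3 of 23 higher, with the glucose transporter Slc2a1 at 1.22, and 2 lower, close to the shares of 8.57% and 7.71% over all genes. Its counts were 1 and 0 without control replicate 2 or LPS + G-CDs replicate 2, 1 and 2 without control replicate 3 or LPS + G-CDs replicate 1, and 1 and 4 under TPM.

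Of 28 macrophage factors and surface receptors tested 12 rose and 4 fell, beside 8.57% higher and 7.71% lower over all genes. Without LPS + G-CDs replicate 2 the counts were 8 and 2. Without 3 members that passed through 1 group alone, 10 of 25 rose and 3 fell. Clec4e, a receptor for microbial glycolipids (3.40), Msr1, a scavenger receptor (2.30), and the inhibitory Fc receptor Fcgr2b (2.17) rose most. The falls included Trem2 (-1.83), Csf1r, the growth factor receptor of macrophages (-1.04), and Apoe (-0.84). In such bulk RNA, fewer cells of a type and less RNA per cell cannot be told apart. Mrc1, the mannose receptor, stayed under the minimum, at 0.0375 ± 0.0291 FPKM in control and 0.0776 ± 0.0648 with LPS + G-CDs (SD, n = 3), and was not tested. Stress genes driven by ATF4 had 14 of 25 higher and 0 lower (median 0.93), led by Chac1, which degrades glutathione (2.86), Nupr1 (2.64), Cth, the cysteine-forming enzyme (2.49), and Ppp1r15a (2.07). Among heat shock genes 6 of 18 were higher, with Herpud1 at 1.79, but the count was 2 without LPS + G-CDs replicate 2, 3 without replicate 1 or 3 of that group or control replicate 2, and 3 under TPM. Among p53 targets 3 of 8 were higher, with Cdkn1a at 1.88, and 1 was lower, Sesn1 (-1.91), few genes beside the shares of 8.57% and 7.71% over all genes. Plk2, another of the 3, passed only through the LPS + G-CDs libraries, and the call of Mdm2 was lost in 6 of 18 alternatives, TPM and quantile scaling among them. In the aryl hydrocarbon receptor list only 3 of 8 genes were tested and Tiparp rose (1.09), 1 of 3 beside 8.57% of all genes. The call of Tiparp was lost under TPM and without control replicate 1 or LPS + G-CDs replicate 2.

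**Figure D2:**
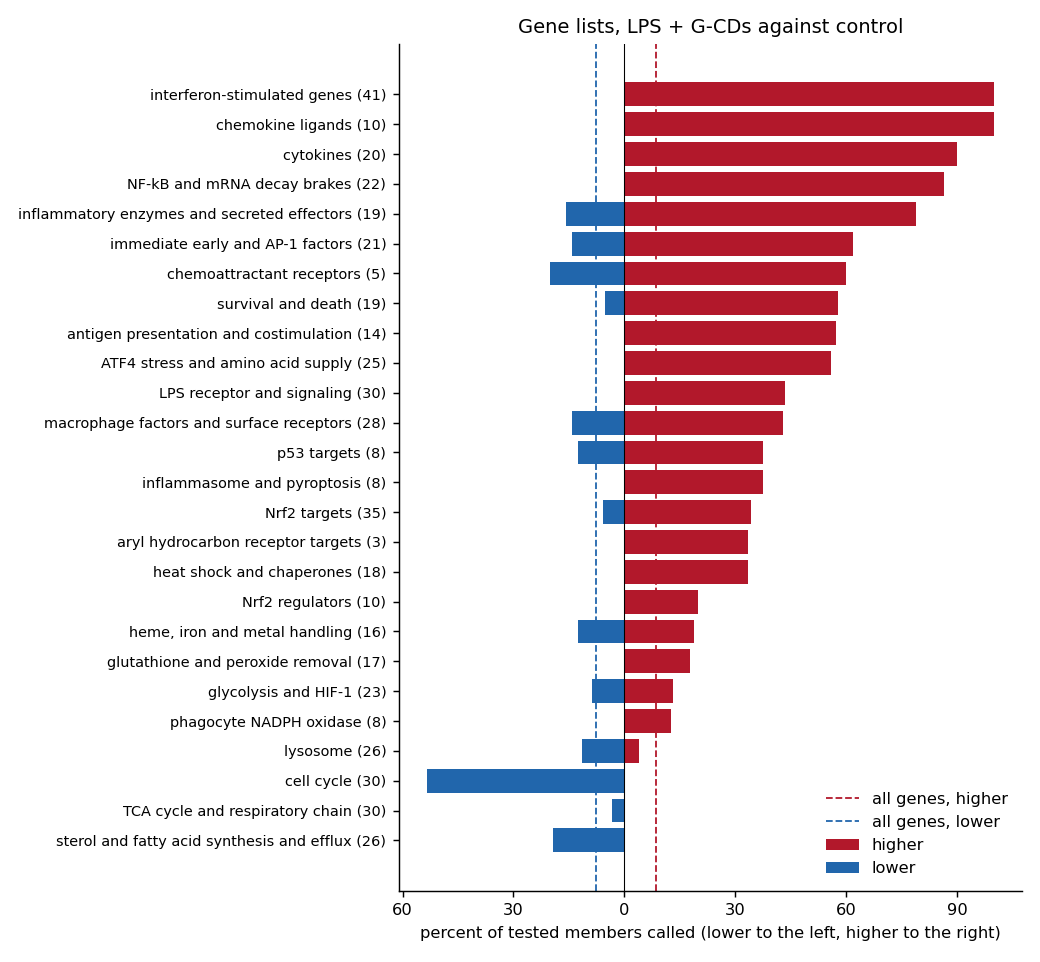
Share of tested members called higher (red, to the right) or lower (blue, to the left) in LPS + G-CDs against control for 26 gene lists, with the number tested in parentheses. Dashed lines mark the shares over all genes, 8.57% higher and 7.71% lower, and interferon-stimulated genes and chemokine ligands reach 100% higher, with 12 of 41 and 6 of 10 members that could only rise by the rule, while the cell cycle has the largest share lower, 53.3%.

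To place these changes against the LPS state, LPS alone was compared with control over the same 11126 genes, where 1978 genes were higher (17.8%) and 2056 lower (18.5%). The comparisons share the control libraries, so their calls are not independent. Of the 1811 genes called with LPS + G-CDs, 1710 were also called in the same direction with LPS (94.4% of these, and 42.4% of the 4034 called with LPS). These kept genes were 890 higher and 820 lower. Their count was 829 without LPS + G-CDs replicate 2, 988 without control replicate 2 and 2470 under TPM. The share was larger among stronger LPS genes. Of the genes that LPS raised by at least 2 on the log2 scale, 284 of 296 were also called higher with LPS + G-CDs, and of those it lowered by as much 44 of 49 were also called lower. These shares are partly set by the rule, which let 65 of the 296 in through the LPS + G-CDs libraries alone and left out LPS genes that were low with LPS + G-CDs. Without the 65, 219 of 231 were called higher, and without the 5 lowered genes that entered through the control libraries alone, 39 of 44 were called lower. The median log2 fold change of the LPS-raised genes was 0.83 with LPS and 0.63 with LPS + G-CDs, and that of the LPS-lowered genes -0.77 and -0.59. Since these genes were chosen by their LPS values, that choice by itself moves the LPS medians away from 0.

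**Figure D3:**
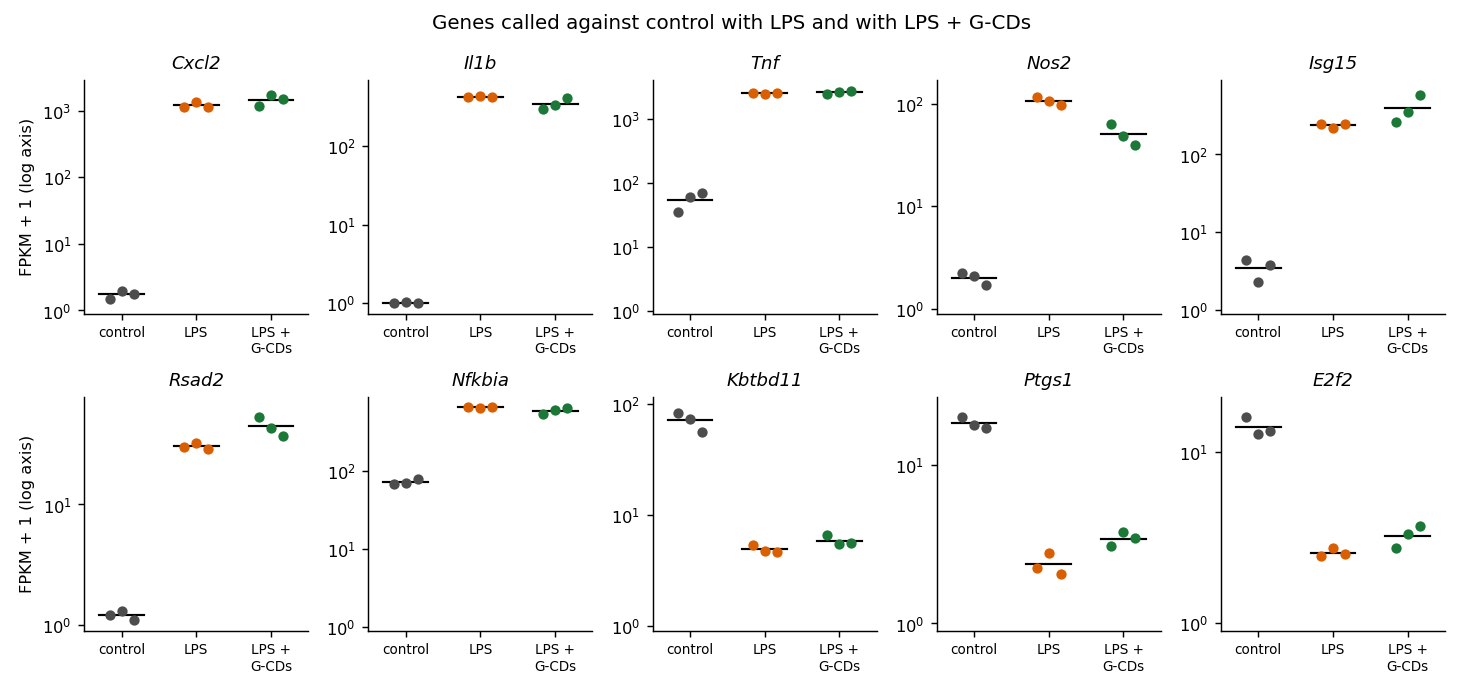
FPKM + 1 on a log axis for 10 genes called against control with LPS and with LPS + G-CDs, 1 point per library in the control (gray), LPS (orange) and LPS + G-CDs (green) groups, with a line at each group's mean. The LPS + G-CDs points lie on the LPS side of the control points in every panel, and for Nos2 they lie between the LPS values of 96.5 to 114 FPKM and the control values of 0.713 to 1.22.

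The 1.5-fold bound used below is on the log2(FPKM + 1) scale, so for genes with low values it allows a larger fold of FPKM itself. No gene met the criteria for a full return, which were a call with LPS, a call of LPS + G-CDs against LPS in the opposite direction, and a 95% interval against control within 1.5-fold. The count of such genes by limma was 0, and under the alternatives it was 2 without the filter, under TPM and under quantile scaling, 6 with a gene-length trend removed, 8 in 1 model of all 9 libraries, 1 without control replicate 1 and 153 without LPS + G-CDs replicate 1. The comparison of LPS + G-CDs with LPS behind this count called 11 genes higher (0.0989%) and 7 lower (0.0629%). Without LPS + G-CDs replicate 1 it called 1908 higher and 1883 lower, and without replicate 2 of that group 7 and 0. With any 1 LPS library left out it called 2 to 5 higher and 0 lower. With a block for the replicate number the calls were 5 and 0, and with a gene-length trend removed 34 and 43. How many genes were placed between LPS and control thus depended on single libraries and on the model, and the reason was not tested.

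Of the 2321 genes called with LPS and not with LPS + G-CDs, 200 had a 95% interval against control that lay within 1.5-fold. For these the LPS + G-CDs level was near control by this bound, which is looser in FPKM for low genes such as Osgin1. Their difference from LPS was not called. They were 94 LPS-raised and 106 LPS-lowered genes with small LPS changes, at a median size of 0.45 with LPS and 0.11 with LPS + G-CDs on the log2 scale. The largest were Gstp1, Osgin1 and Smyd4. Gstp1, a glutathione transferase, was at 10.1, 10.4 and 13.4 FPKM in control, 3.15, 3.06 and 5.82 with LPS and 9.50, 10.3 and 13.1 with LPS + G-CDs. Osgin1, an oxidative stress response gene, was at 1.89, 2.94 and 3.23, then 0.622, 0.813 and 0.900, then 2.20, 2.34 and 3.11 FPKM. In both genes the LPS + G-CDs libraries overlapped control and lay above every LPS library, with adjusted p = 0.139 and 0.0785 for the difference from LPS. The other 2121 genes had intervals that reached past 1.5-fold, so neither a return nor a stay could be seen with this spread. Among them were Rsbn1 and Zc3h12c, at 1.72 ± 0.50 and 1.71 ± 0.50 against control and 2.74 and 2.42 with LPS.

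Partial returns were counted where a gene was called against control with both treatments and called against LPS in the opposite direction. These were 5 genes, all raised by LPS. Of them Ccl22, Edn1 and Lta passed the minimum only through the LPS + G-CDs libraries, so the rule fixed their place above control. Il1rn, the antagonist of the interleukin-1 receptor, was at 0.665, 1.32 and 1.46 FPKM in control, 136, 139 and 128 with LPS and 55.4, 51.4 and 46.7 with LPS + G-CDs. The 3 groups were fully apart, and the log2 fold change was 4.62 ± 0.19 against control and -1.38 ± 0.11 against LPS (adjusted p = 0.0122, limma). Ccl22, a chemokine for regulatory T cells, was at 0.275, 0.152 and 0.242, then 124, 125 and 120, then 45.2, 44.8 and 57.4 FPKM, lower than LPS by -1.31. Edn1, the vasoconstrictor endothelin, had 0 reads in control, 24.5, 27.0 and 21.6 FPKM with LPS and 11.1, 9.65 and 9.95 with LPS + G-CDs. It was still at least 130-fold above the floor of 3 reads per control library and was lower than LPS by -1.17. Lta, lymphotoxin alpha, had 2 control reads and 4.90, 6.14 and 6.43 FPKM with LPS + G-CDs against 14.4, 13.5 and 12.8 with LPS (-1.10, adjusted p = 0.0465). Its ratio to control was 216 with a counting interval of 59.4 to 1792. Msr1 was at 3.57, 5.00 and 5.38, then 50.2, 53.9 and 52.4, then 27.5, 26.1 and 26.1 FPKM (-0.95 against LPS).

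The partial returns depended on single libraries. With any 1 LPS library left out, or without LPS + G-CDs replicate 2, the count of partial returns was 0, without LPS + G-CDs replicate 1 it was 208 with the 5 among them, and without replicate 3 it was 18. In that group of 208 among the 11126 genes were Nos2, Ptgs2, Nlrp3, Il1a, Il27, Tnfaip3 and Mmp9. Of the 41 tested interferon-stimulated genes, 7 were partial returns without that replicate, while 6 were raised further than with LPS and Irf1 was new. A further 3 genes were called against LPS in the direction of control and were not called against control, with intervals past 1.5-fold. Ms4a6c, a membrane protein of myeloid cells, was at 2.39, 3.47 and 3.51 FPKM in control, 11.1, 10.8 and 12.4 with LPS and 4.22, 3.79 and 4.31 with LPS + G-CDs (0.32 against control, 95% interval -0.07 to 0.71). Spink5, a protease inhibitor, was at 0.56 against control (interval 0.06 to 1.05) and -1.33 against LPS. The third was Gm23964, at 0 in all LPS libraries and with widely spread controls of 4.48, 4.39 and 0.525 FPKM.

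**Figure D4:**
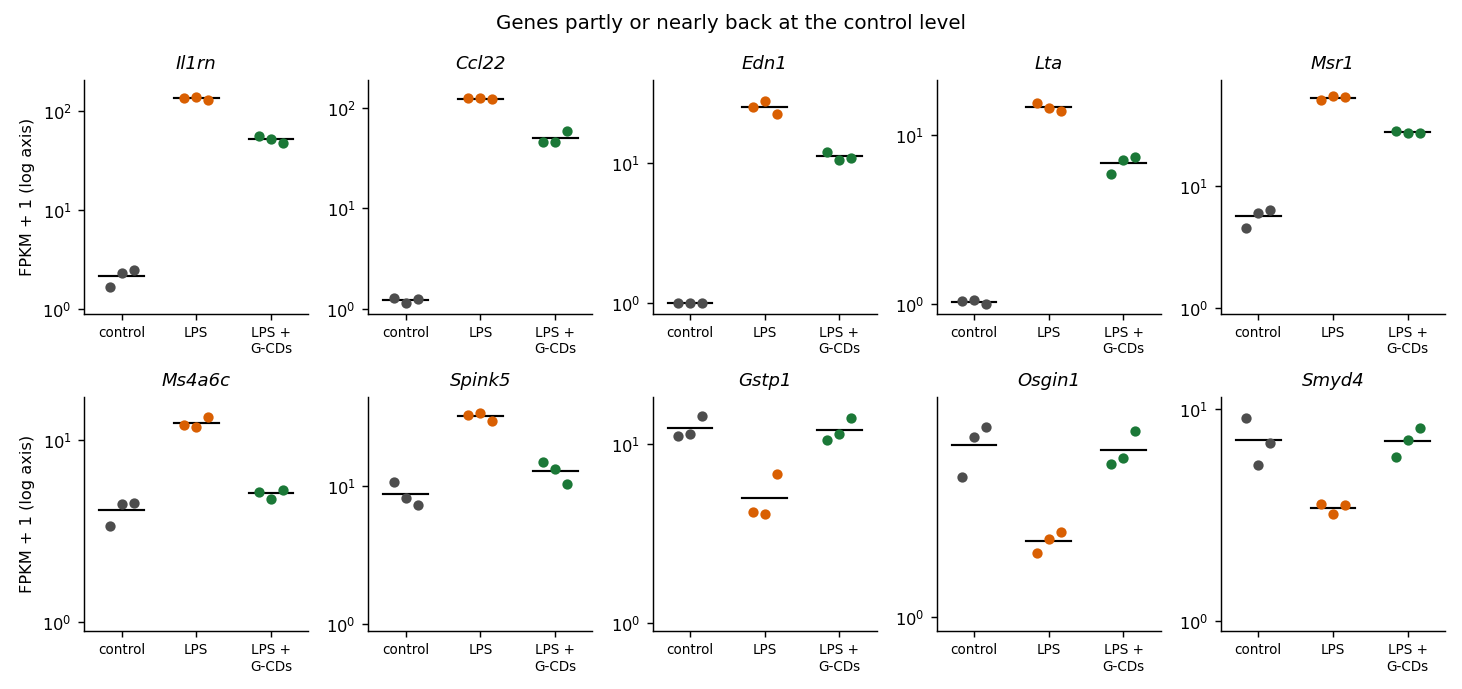
FPKM + 1 on a log axis for the 5 partial returns (top row) and for 5 genes nearer to control (bottom row), 1 point per library in the control (gray), LPS (orange) and LPS + G-CDs (green) groups, with a line at each group's mean. In the top row the LPS + G-CDs points lie between the other groups, and in the bottom row they overlap control except for Ms4a6c, whose 3.79 to 4.31 FPKM lies just above the control range of 2.39 to 3.51.

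The rule left out some genes that were measured with LPS. In all 3 LPS libraries 176 such genes reached 1 FPKM, while at most 2 of the other 6 libraries did, and 80 of these genes were protein-coding. Their LPS + G-CDs means were a median of 52.7% of the LPS means, and in 89 of them every LPS + G-CDs library lay below every LPS library. Low LPS + G-CDs values are part of how these genes came to be left out, so this is a description with no test. Axl, a receptor kinase for dying cells, was at 0.269 ± 0.0612 FPKM in control, 5.45 ± 0.121 with LPS and 1.16 ± 0.395 with LPS + G-CDs. Fpr2, a formyl peptide receptor, was at 0.0453, 3.75 and 0.494 FPKM and Ccl17, a chemokine, at 0.334, 7.62 and 2.73. These genes were chosen after their values were seen.

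Genes counted as new with G-CDs were called higher or lower in the same direction against control and against LPS and were not called that way with LPS alone. They were 6 genes, all higher, and 5 of them are listed as targets of Nrf2. Hmox1 (chromosome 8, 75093621 to 75100589, GRCm38), the heme oxygenase, was at 53.1, 59.3 and 76.8 FPKM in control, 80.7, 73.8 and 74.7 with LPS and 634, 737 and 813 with LPS + G-CDs. The LPS libraries lay within or just above the control range, while the LPS + G-CDs libraries were far above both. The log2 fold change was 3.52 ± 0.22 against control (adjusted p = 9.45e-05) and 3.23 ± 0.13 against LPS (adjusted p = 1.32e-03, limma). Srxn1, which repairs oxidized peroxiredoxins, was at 18.0, 17.0 and 20.2, then 15.2, 14.3 and 16.4, then 69.5, 76.0 and 80.0 FPKM (1.98 against control and 2.22 against LPS). Gclm, the modifier subunit of the enzyme that starts glutathione synthesis, was at 10.2, 10.5 and 11.4, then 8.73, 9.63 and 9.48, then 36.7, 43.4 and 43.1 FPKM (1.84 and 2.03).

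The other 3 new genes were lowered by LPS and stood above control with LPS + G-CDs. Akr1b8, an aldo-keto reductase, was at 25.9, 27.2 and 36.9 FPKM in control, 17.8, 16.6 and 18.7 with LPS and 63.9, 75.8 and 104 with LPS + G-CDs. Slc48a1 (chromosome 15, 97778520 to 97792692), a heme transporter, was at 11.8, 18.7 and 19.5, then 7.55, 7.56 and 8.43, then 31.2, 36.1 and 38.5 FPKM. Layn, a hyaluronan receptor and the 1 new gene that is in none of the Nrf2 lists, was at 8.81, 9.14 and 7.39, then 5.17, 4.93 and 4.94, then 17.2, 16.8 and 19.3 FPKM. In all 3 genes the groups were fully apart, with LPS lowest and LPS + G-CDs highest. Against control they were higher by 1.40, 1.06 and 0.99. The calls of Slc48a1 and Layn against control were lost under TPM, and that of Slc48a1 also without LPS + G-CDs replicate 2. Akr1b8 and Layn left the class with the replicate block and with any 1 LPS library left out, and Akr1b8 also without the filter and without LPS + G-CDs replicate 2. Srxn1 stayed in the class of new genes under all alternatives and Gclm under all but 1. Hmox1 left the class without control replicate 3 and with a gene-length trend removed, with or without the replicate block, while its rise against control was called under all alternatives. Without LPS replicate 2 the class held Hmox1 and Srxn1 alone. Without LPS + G-CDs replicate 1 the class held 143 genes, these 6 included.

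Another 4 genes were raised by LPS and raised further with LPS + G-CDs. Procr, the endothelial protein C receptor, was at 1.05, 0.925 and 1.33 FPKM in control, 8.55, 7.67 and 8.40 with LPS and 33.6, 40.8 and 43.7 with LPS + G-CDs. The groups were fully apart, and Procr was higher by 4.26 ± 0.16 against control and by 2.12 ± 0.13 against LPS (adjusted p = 2.67e-03). Sqstm1, the autophagy receptor p62, was at 58.4, 48.4 and 58.8, then 212, 199 and 216, then 464, 533 and 575 FPKM. Slc11a1, a metal transporter of phagosomes, was at 12.9, 12.5 and 13.4, then 16.8, 15.4 and 17.0, then 30.7, 30.8 and 32.4 FPKM. The fourth was Gm35037, at a mean of 3.21, 5.80 and 18.6 FPKM in control, LPS and LPS + G-CDs. Of these 4, only Procr stayed in the class without LPS replicate 1 or 3, without LPS + G-CDs replicate 2 and with the replicate block, and 0 stayed without LPS replicate 2. Without LPS + G-CDs replicate 1 the class held 168 genes, these 4 included.

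**Figure D5:**
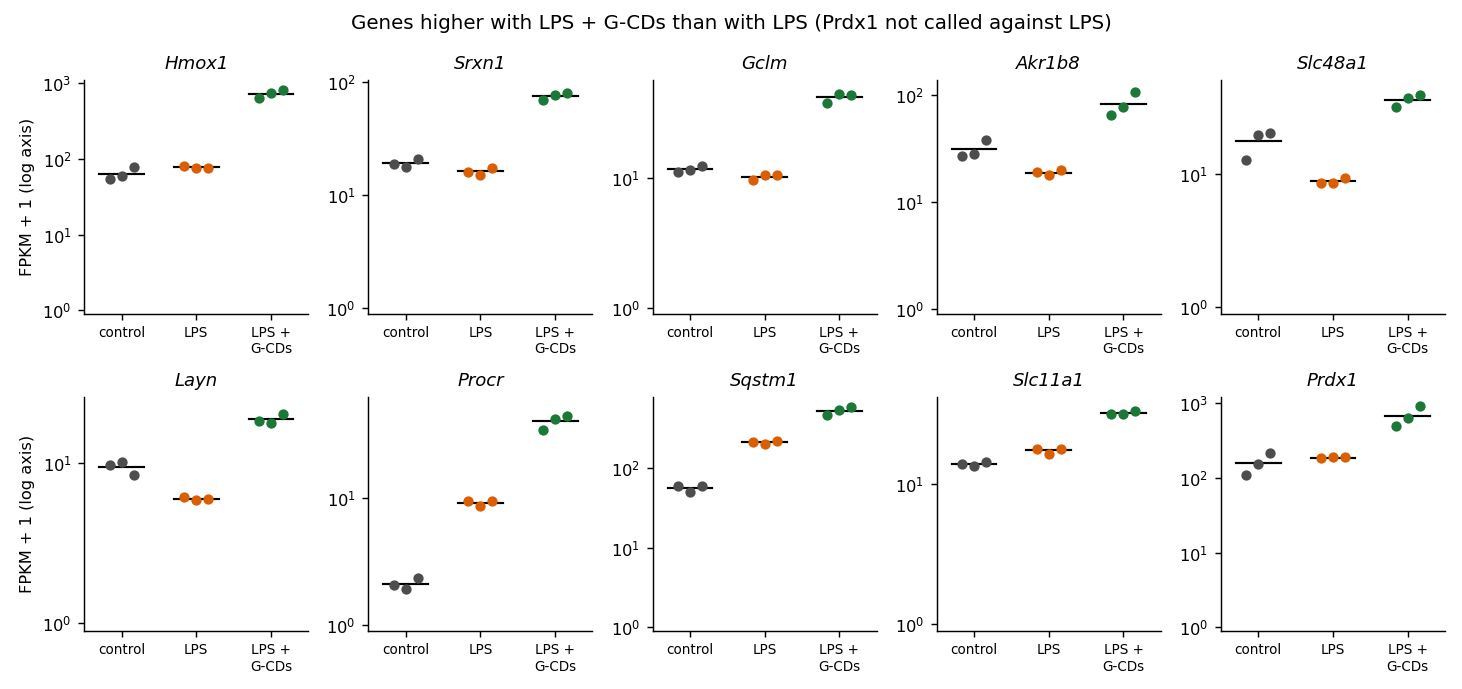
FPKM + 1 on a log axis for the 6 new genes, for Procr, Sqstm1 and Slc11a1, and for Prdx1, 1 point per library in the control (gray), LPS (orange) and LPS + G-CDs (green) groups, with a line at each group's mean. In every panel the 3 LPS + G-CDs points are the highest, and for Hmox1 they lie at 634 to 813 FPKM against 53.1 to 80.7 in the other 6 libraries.

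Among genes with a promoter window, counted as above, the antioxidant response element, TGACNNNGC, was in 14.0% of all and 17.1% of tested genes. It was in 20.6% of genes called higher and 16.7% of genes called lower. It was in 2 of the 4 new genes with a window, in 1 of the 4 genes raised further and in 2 of the 4 partial returns. Among tested list members with a window it was in 9 of 28 Nrf2 targets, 8 of 31 interferon-stimulated genes and 3 of 14 cytokines. The matches are printed because these genes separated LPS + G-CDs from both other groups. Capitals mark the match, which begins 134 bases upstream of the gene start in Gclm and 154 bases upstream in Procr and lies just after the start in Srxn1.
Gclm (chr3:122245383-122245471, plus strand): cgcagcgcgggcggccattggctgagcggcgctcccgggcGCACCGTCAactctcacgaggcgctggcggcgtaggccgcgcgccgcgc
Srxn1 (chr2:152105542-152105570, plus strand): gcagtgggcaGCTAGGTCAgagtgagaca
Procr (chr2:155751023-155751111, plus strand): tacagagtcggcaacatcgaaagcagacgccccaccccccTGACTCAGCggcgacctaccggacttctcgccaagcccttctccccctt

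Of the 40 listed Nrf2 targets 35 were tested, and 12 were higher and 2 lower with LPS + G-CDs than in control, with a median of 0.45. With LPS alone 4 were higher and 14 lower, with a median of -0.36. Of those 14, Slc48a1 and Akr1b8 were higher than control with LPS + G-CDs, Idh1 (-0.84) and Ugdh (-0.56) were lower, and 10 were not called. Without control replicate 2 the list had 10 higher and 0 lower, and without LPS + G-CDs replicate 2 it had 9 and 0. The mean of the LPS + G-CDs libraries lay above that of the LPS libraries for all 35, beside 54.1% of all genes, and 6 of these differences were called, beside 0.0989% of all genes called higher against LPS. The smallest of the differences were those of Ugdh (0.03 ± 0.10) and Me1 (0.09 ± 0.11), and the count of 35 was not repeated under TPM. None of the 35 passed the minimum through 1 group alone. Under TPM the median against control was 0.02, with 11 higher and 3 lower, against a median of -0.34 over all genes.

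Among the 12 that were higher, 4 were also raised by LPS. Slc7a11, the cystine importer, was at 2.67, 3.80 and 2.34 FPKM in control, 16.4, 16.8 and 16.2 with LPS and 52.9, 34.3 and 27.0 with LPS + G-CDs (3.28 ± 0.27 against control). The others of these 4 were Sqstm1, the thioredoxin reductase Txnrd1 (1.45) and the exporter Abcc1 (1.25). Outside the new genes, Prdx1, Esd and Blvrb were called against control and not with LPS. Prdx1, a peroxiredoxin, was at 108, 151 and 213 FPKM in control, 182, 186 and 188 with LPS and 488, 626 and 906 with LPS + G-CDs (2.10 ± 0.34, adjusted p = 6.81e-03). Its LPS libraries overlapped control and its LPS + G-CDs libraries did not, but the difference from LPS, 1.81, was not called (adjusted p = 0.0583). Blvrb, which acts on the bilirubin pathway downstream of heme oxygenase, was at 17.7, 10.9 and 15.8, then 10.9, 10.6 and 11.8, then 30.4, 45.6 and 64.4 FPKM. Ftl1, the ferritin light chain, was above every LPS library in each LPS + G-CDs library but overlapped control, at 821, 659 and 1204 against 1049, 1681 and 2788 FPKM (0.97 ± 0.44, not called).

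The Nrf2 regulators moved less. Nfe2l2, which encodes Nrf2, was at 20.3, 33.7 and 33.2 FPKM in control, 29.1, 31.5 and 30.9 with LPS and 28.4, 30.5 and 31.3 with LPS + G-CDs, and the groups overlapped. Its log2 fold change against control was 0.08 (95% interval -0.44 to 0.60), and the sign turned under TPM (-0.34). Keap1 was at 25.4, 26.5 and 24.7 in control and 21.6, 21.2 and 22.8 with LPS + G-CDs, below control in every library by a log2 fold change of -0.21 (interval -0.53 to 0.10) that was not called, and under TPM it was called lower (-0.64). The small Maf partners Maff (2.31) and Mafk (0.81) were the 2 of 10 regulators that rose, and they were raised by LPS alone by 2.38 and 0.95. The call of Mafk was lost in 8 of 18 alternatives, TPM and the omission of any 1 LPS + G-CDs library among them. In the list of glutathione and peroxide removal Glrx (3.08), Sod2 (2.22) and Prdx5 (1.95) rose, 3 of 17 tested beside 8.57% of all genes. All 3 were higher with LPS alone, by 2.83, 2.38 and 1.97. Of 8 subunits of the NADPH oxidase Cybb alone rose (1.33), 1 of 8 beside 8.57% of all genes, and the list median was 0.04. The call of Cybb was lost with any 1 control library left out. Of 16 genes of heme, iron and metal handling 3 rose, with Lcn2, a siderophore-binding protein, at 2.84, and 2 fell, with Steap3 at -1.30. Lcn2 passed only through the LPS + G-CDs libraries, and without it 2 of 15 rose and 2 fell, beside 8.57% higher and 7.71% lower over all genes.

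In all, 98 genes were called with LPS + G-CDs and not with LPS. For 19 of these the 95% interval of LPS against control lay within 1.5-fold on the log2(FPKM + 1) scale, 13 of them higher and 6 lower with LPS + G-CDs. They included Srxn1, Gclm, the kinesin Kif3c, and Alas1, the first enzyme of heme synthesis. Kif3c was at 2.91, 2.62 and 2.40 FPKM in control, 3.43, 2.33 and 2.70 with LPS and 6.39, 6.65 and 6.20 with LPS + G-CDs, and Alas1 rose from 6.08, 5.29 and 6.01 to 10.6, 11.7 and 13.8 FPKM. The differences of both from LPS were 0.97 and 0.67 and were not called. For the other 79 the LPS interval reached past 1.5-fold, so a smaller change with LPS could not be seen. Among these were the proliferation genes Mki67 (-1.14 with LPS + G-CDs and -0.52 with LPS) and Ccnd1 (-1.05 and -0.51). Kif3c, Alas1, Mki67 and Ccnd1 were chosen after their values were seen.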

How the data were processed

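RNA purified on poly-T beads of 9 RAW264.7 libraries had been sequenced on an Illumina NovaSeq instrument. The authors deposited FPKM values per gene and library with gene coordinates and lengths. The submitters' processing notes name GRCm38 and mm10, the aligner and counter are not given in the sources used here, and 53548 of 54495 gene IDs found in GENCODE M21 had equal coordinates. FPKM times gene length came out as whole multiples of 1 read within 0.05 reads for 100% of values, which gave the depth of 14752400 to 17312255 reads. Precision is set by 3 libraries per group.

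Groups were taken from the sample titles, and 0 columns belonged to no sample. Genes that reached 1 FPKM in 3 of the 6 libraries compared were fitted on log2(FPKM + 1). The fit used limma 3.58.1 under R 4.3.3, with its moderated two-sided test, a trend of variance with level, and Benjamini-Hochberg adjustment over 11126 genes. Each pair of groups was fitted on its own 6 libraries. A gene was called at an adjusted p under 0.05. All intervals of fold changes are 95% limma intervals, and those of read ratios are exact binomial. The script was tested on simulated data. Python 3.11.15 and pandas 2.3.3 prepared the tables.

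The 26 gene lists held 588 symbols, of which 588 were found and 510 tested. The gene set, the lists and the classes were chosen with earlier results of these data known, so list counts are descriptions and no list was tested. Named were the 10 largest rises and falls without overlap between groups among called protein-coding genes, up to 4 called members of each list, members of the classes of new and returning genes, and genes that the study measured by other assays. Some genes that the rule names are not reported here. Names beyond this rule serve as examples and were chosen after their values were seen. Alternatives were a pseudocount of 0.1, no filter, a minimum of 5, TPM, median-of-ratios and quantile scaling, 1 model of all 9 libraries, eBayes without trend, voom on the reads, removal of a gene-length trend, a block for the replicate number, and fits that leave out single libraries.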

Additional observations from a re-analysis of the deposited data

How the results depend on the processing

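Single genes were followed where the naming rule selected them, which leaves out other examples in the text. Of 114 such genes called against control, 97 were called under all alternatives in which they were tested, 17 lost the call under 1 or more and 0 changed sign. The cause of the moves given here was not tested.

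Genes higher were 585 under TPM, 1452 in 1 model of all 9 libraries, 1588 with a replicate block and 1697 with the block and a gene-length trend removed. Genes lower were 2024, 1453, 1397 and 1523 under the same alternatives, and kept genes were 2479 with the block and the trend removed. Returns were 8 in 1 model and 6 with the trend removed. Partial returns were 3 without a filter, 11 under quantile scaling, 20 in 1 model, 36 with the trend removed, and 0 with the block or 11 when the trend was also removed. New genes were 10 with the minimum of 5, under TPM and under median-of-ratios scaling, 13 under quantile scaling, in 1 model and with the trend removed, 4 with the block and 11 with both. With single libraries left out, genes higher ranged from 535 to 883, genes lower from 318 to 735, kept genes from 829 to 1551, returns from 0 to 153, partial returns from 0 to 208 and new genes from 2 to 143.

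The replicate numbers were not treated as pairing libraries, since same-numbered control and LPS + G-CDs libraries correlated in their deviations at 0.287, 0.074 and 0.673, and control replicate 2 correlated best with LPS + G-CDs replicate 1 (0.531).

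Among the genes followed, the sign turned for 4 that were not called. Nfe2l2 was at -0.34 under TPM, -0.10 under quantile scaling and -0.15 to 0.20 with single libraries left out, and Ikbkb at -0.31 under TPM and -0.0658 to 0.16. Ms4a6c was at -0.021 under TPM. Gm23964 was at 0.069 with the pseudocount of 0.1, 0.060 with voom and -0.69 to 0.24 with single libraries left out. Among lists, the medians of glycolysis (-0.27), lysosome (-0.37), NADPH oxidase (-0.40), heme and iron (-0.21), glutathione (-0.11), the aryl hydrocarbon receptor (-0.01) and Nrf2 regulators (-0.18) were below 0 under TPM and above 0 as reported. The depth limits genes with few reads, and the spread of the control and LPS + G-CDs libraries limits what could be called.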
